A study of Mus musculus with 6 samples.

Results

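The glycerol genes described here encode the proteins that move glycerol across the fat cell membrane and that make or use glycerol 3-phosphate, the backbone onto which fatty acids are loaded to form triglyceride. They were chosen by gene name as a list of 7 genes, with earlier results of these data known, taking every probe set annotated to each one. Of these, 6 were measured: Gpd1, Gpd2, Aqp7, Aqp3, Pck1 and Pck2, each by 1 probe set, against 19937 genes and 34760 probe sets on the array as a whole. No probe set of these genes was shared with another gene (0 probe sets). The gene of glycerol kinase, the remaining member (Gyk, also named Gk), was not analysed here.

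RNA came from whole dissected inguinal fat, a white depot under the skin, of 3 Atf7 knockout (KO) mice and 3 wild-type (WT) mice, with 1 Affymetrix array per replicate. Atf7 is a transcription factor of the ATF and CREB family, which binds cyclic AMP response elements. All mice were males of the C57BL/6 strain aged 5 weeks, and both genotypes were littermates descended from Atf7 heterozygotes. The labels do not say how the allele was disrupted or in which cells, and name no treatment. The series description gives the replicates as mice, so the spread is one between animals. In tissue RNA of this kind, fewer cells of a type and less RNA per cell cannot be told apart.

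In fat, glycerol 3-phosphate has several sources. Glycolysis supplies dihydroxyacetone phosphate, which the cytosolic dehydrogenase Gpd1 reduces to glycerol 3-phosphate. In fasted fat, pyruvate is carried through oxaloacetate and phosphoenolpyruvate to the same triose phosphate, a route called glyceroneogenesis that needs a phosphoenolpyruvate carboxykinase (Pck1 in the cytosol, Pck2 in mitochondria). Gpd2, in the inner mitochondrial membrane, oxidises glycerol 3-phosphate back to dihydroxyacetone phosphate and passes the electrons to the respiratory chain, so Gpd1 and Gpd2 together form the glycerol phosphate shuttle. Aqp7 and Aqp3 are aquaglyceroporins, channels that pass glycerol as well as water, and Aqp7 is the one known for glycerol exit from fat cells.

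The largest difference of the 6 genes was that of Gpd2, 1.63-fold higher in KO fat with no overlap between the groups, but no gene passed the adjusted threshold when each gene was taken by its brightest probe set. Aqp7 averaged higher in KO fat with overlapping groups. Gpd1, Aqp3, Pck1 and Pck2 had averages close to those of WT fat. Genes were tested with limma, with p-values adjusted over all 19937 genes by the Benjamini-Hochberg method and a threshold of 0.05. At that threshold 0% of the genes were called, and the smallest adjusted p in that fit was 0.237. Counts below therefore also use an unadjusted p under 0.05, a looser rule met by 4.99% of all genes in the higher direction and by 2.48% in the lower one. Of the 6 glycerol genes, 1 was higher by that rule (Gpd2) and 0 were lower. Their median difference was 0.13 on the log2 scale and 5 of the 6 were above 0, beside a median of 0.01 and 53.0% above 0 over all genes. The KO arrays all exceeded the WT arrays for 1 of the 6, and for 7.96% of all genes.

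Atf7 itself checked the labels. Its probe set 10433032 read 6.22, 6.53 and 6.49 log2 units in the KO arrays, against 8.95, 9.20 and 9.07 in the WT arrays, a difference of -2.66 (limma, adjusted p = 0.00658 over all probe sets). A second Atf7 probe set, 10433034, differed by -0.17 (adjusted p = 0.730). The tissue carried fat cell markers at high levels. All 11 white adipocyte markers measured were at or above the percentile of 95.5 among genes in mean log2 value. Adiponectin (Adipoq) differed by -0.01 (SE 0.13). Of the 11 differences 7 were above 0, with a median of 0.085. By the unadjusted rule 1 of the 11 was higher and 0 lower, beside 4.99% and 2.48% of all genes. KO replicate 3 stood apart, with array correlations between 0.969 and 0.981 against 0.984 to 0.990 among the other arrays. The mean of 22 lymphocyte markers, each centred on its mean over the 6 arrays, was -0.10, 0.68 and -2.68 in KO replicates 1 to 3, and lay between 0.56 and 0.84 in the WT arrays. None of the 11 B cell and 11 T cell markers measured averaged higher in KO fat. The mean of 13 skeletal muscle markers was 1.48, -1.30 and -1.52 in KO replicates 1 to 3, and -1.41, 2.26 and 0.50 in WT replicates 1 to 3. Luminal epithelial markers were high in WT replicate 2 alone, at 1.35, against -0.34 to -0.24 in the other arrays. Keratinocyte markers were highest there too, at 0.41. The part of these differences in the results that follow was not tested, beyond the values given without single arrays or with the lymphocyte or muscle score in the fit.

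The promoters of 2 members are shown because they bear on the binding letters of the deleted factor. RefSeq sequences for build GRCm38.p6, 250 bases before and 50 after a gene's start, were at hand for 5 of the 6 measured genes, in 7 windows. The cyclic AMP response element with the letters TGACGTCA was in 0 of the 7 windows. Its close variant TTACGTCA was in 1, on the plus strand of Pck1, the gene of cytosolic carboxykinase long used to study this element. It lay at positions -93 to -86 counted from the start, with no position 0, and contains the half-site TGACG on the other strand at -90 to -86. In the Pck1 window below, the variant is in capitals. Of 32851 promoter windows of the same length, searched on both strands, 1.79% held TGACGTCA, 0.499% held TTACGTCA and 20.8% held TGACG. Neither window of Gpd2, the gene with the largest difference, held any of these letters. The GC box GGGCGG was also searched and was in 4 of the 7 windows and in 35.7% of all windows, while a direct repeat of AGGTCA with any 1 base between the copies was in 0 of the 7 and in 0.0396% of all windows. A match of letters is a description, and draws nothing about binding in these mice.
Pck1, chr2:173152823-173153122, plus strand: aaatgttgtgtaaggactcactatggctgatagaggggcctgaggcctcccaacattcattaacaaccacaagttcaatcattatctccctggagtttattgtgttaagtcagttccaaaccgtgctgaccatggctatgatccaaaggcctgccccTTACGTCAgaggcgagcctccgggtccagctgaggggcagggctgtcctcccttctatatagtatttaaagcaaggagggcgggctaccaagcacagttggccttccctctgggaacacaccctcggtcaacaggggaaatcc
Gpd2, first start, chr2:57237428-57237727, plus strand: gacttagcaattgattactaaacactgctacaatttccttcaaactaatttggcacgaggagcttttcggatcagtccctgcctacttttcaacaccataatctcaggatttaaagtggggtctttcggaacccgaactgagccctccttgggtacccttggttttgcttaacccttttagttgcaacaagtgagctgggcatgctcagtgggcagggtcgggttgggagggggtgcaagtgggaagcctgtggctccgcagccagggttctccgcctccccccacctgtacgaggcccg
Gpd2, second start, chr2:57238132-57238431, plus strand: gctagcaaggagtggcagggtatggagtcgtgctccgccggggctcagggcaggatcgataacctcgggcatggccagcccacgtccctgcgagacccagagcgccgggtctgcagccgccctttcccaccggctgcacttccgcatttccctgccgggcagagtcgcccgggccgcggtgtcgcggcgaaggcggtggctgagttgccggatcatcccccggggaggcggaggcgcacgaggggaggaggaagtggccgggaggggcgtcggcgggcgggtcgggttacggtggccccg

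Gpd2, the mitochondrial glycerol 3-phosphate dehydrogenase, read 9.91, 9.78 and 10.26 log2 units in KO replicates 1 to 3, against 9.31, 9.50 and 9.02 in WT replicates 1 to 3 (probe set 10472162). All 3 KO arrays were above all 3 WT arrays, with KO replicate 3 the highest and WT replicate 3 the lowest. The mean was 9.98 ± 0.25 in KO fat and 9.28 ± 0.24 in WT fat (SD, n = 3 each). The difference was 0.71 (SE 0.17, 95% interval 0.31 to 1.10), or 1.63-fold (1.24 to 2.15). Limma gave an unadjusted p of 0.00387 and an adjusted p of 0.622. By p-value the gene was number 90 of the 19937. Without KO replicate 3, the array with the lowest lymphocyte score, the difference was 0.57 (limma, unadjusted p = 0.00756). With the lymphocyte score in the fit it was 0.50 (limma, unadjusted p = 0.0139).

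Gpd1, the cytosolic partner of Gpd2 in the shuttle, read 11.95, 11.85 and 11.97 in KO replicates 1 to 3, against 11.62, 12.08 and 11.56 in WT replicates 1 to 3 (probe set 10426812). The KO arrays were close together, and WT replicate 2 was the highest of all 6 arrays, so the groups overlapped. The difference was 0.17 (SE 0.15, 95% interval -0.18 to 0.52; limma, adjusted p = 0.728), or 1.13-fold (0.884 to 1.44). WT replicate 2 is also the array with the highest muscle and epithelial marker levels. Without it the Gpd1 difference was 0.34 (limma, unadjusted p = 0.0151, adjusted p = 0.687), while leaving out WT replicate 1 gave 0.11 and leaving out WT replicate 3 gave 0.07 (limma, unadjusted p = 0.654). With the muscle score in the fit it was 0.24. Gpd1 and Atf7 are both on chromosome 15, with 81 measured genes between them in the RefSeq order.

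The log2 ratio of Gpd2 to Gpd1 within each array, centred on its mean over the 6 arrays, was 0.17, 0.14 and 0.49 in KO replicates 1 to 3, against -0.10, -0.37 and -0.32 in WT replicates 1 to 3. The KO ratios all lay above the WT ratios. The difference was 0.53, a 1.45-fold higher ratio in KO fat, with a two-sided exact permutation p of 0.1, the smallest that 3 arrays against 3 can give. It was 0.42 without KO replicate 3.

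**Figure D1:**
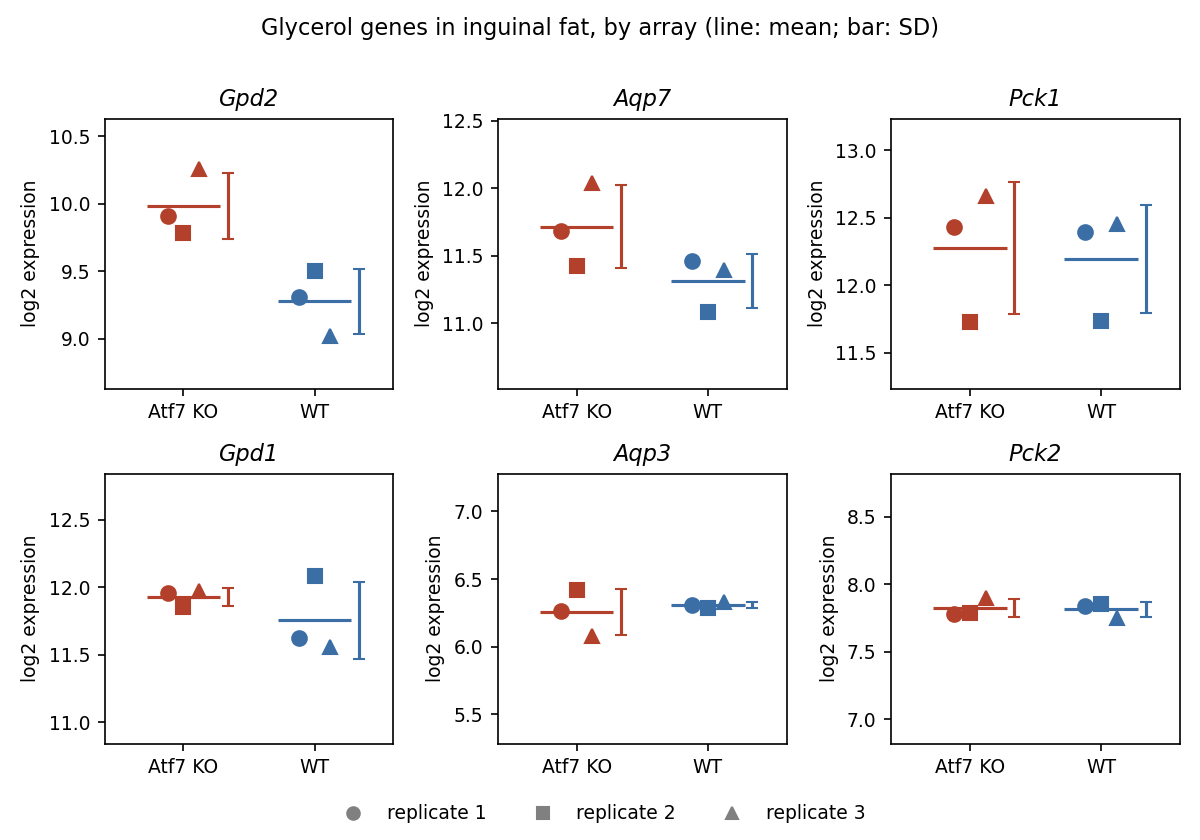
Log2 expression of the 6 glycerol genes on each array, with KO arrays in red on the left of each panel and WT arrays in blue on the right; marker shapes give the replicate, lines the mean and bars the SD (n = 3 per group), and each panel spans 2 log2 units around the mean of the gene. Gpd2 is the 1 gene in which all KO arrays, at 9.78 to 10.26, lie above all WT arrays, at 9.02 to 9.50, and Pck1 shows 1 low array in each group.

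Among the glycerol channels, Aqp7 read 11.68, 11.42 and 12.04 in KO replicates 1 to 3, against 11.46, 11.08 and 11.40 in WT replicates 1 to 3 (probe set 10512145). KO replicate 2 lay just below WT replicate 1, and the other KO arrays lay above all WT arrays. The difference was 0.40 (SE 0.18, 95% interval -0.02 to 0.82), or 1.32-fold (0.988 to 1.77). Limma gave an unadjusted p of 0.0576 and an adjusted p of 0.622. Without KO replicate 3 it was 0.24, without KO replicate 2 it was 0.55, and with the lymphocyte score in the fit it was 0.17.

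Aqp3, the channel of epithelia, was a dim signal, at 6.26, 6.42 and 6.08 in KO replicates 1 to 3 and 6.31, 6.28 and 6.33 in WT replicates 1 to 3 (probe set 10512156). All 6 values were below the median gene value of 6.89. The 3 WT arrays were nearly equal and lay within the range of the KO arrays. The difference was -0.05 (SE 0.11, 95% interval -0.31 to 0.20; limma, adjusted p = 0.893). Aqp3 and Aqp7 are neighbours on chromosome 4, with 0 measured genes between them. Within arrays the log2 ratio of Aqp3 to Aqp7 differed by -0.46 (two-sided exact permutation p = 0.3), and by -0.69 without KO replicate 2 and -0.21 without KO replicate 3.

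Pck1, the cytosolic carboxykinase of glyceroneogenesis, read 12.43, 11.73 and 12.66 in KO replicates 1 to 3, against 12.39, 11.73 and 12.45 in WT replicates 1 to 3 (probe set 10479047). KO replicate 2 and WT replicate 2 were low to the same degree and the other arrays were high. The mean was 12.27 ± 0.49 in KO fat and 12.19 ± 0.40 in WT fat (SD, n = 3 each), the widest spread within groups of the 6 genes and wider than that of 96.1% of all genes. The difference was 0.08 (SE 0.28, 95% interval -0.59 to 0.75; limma, adjusted p = 0.942), or 1.06-fold (0.666 to 1.68). That interval holds differences as large as that of Gpd2. It changed sign with single arrays, at 0.36 without KO replicate 2 and -0.15 without WT replicate 2.

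Pck2, the mitochondrial carboxykinase, was even, at 7.78, 7.79 and 7.90 in KO replicates 1 to 3 and 7.84, 7.86 and 7.75 in WT replicates 1 to 3 (probe set 10415248). The groups overlapped. The difference was 0.01 (SE 0.09, 95% interval -0.19 to 0.21; limma, adjusted p = 0.980). The log2 ratio of Pck2 to Pck1 within arrays differed by -0.07 (two-sided exact permutation p = 0.6).

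Likeness between genes was measured as the root mean square distance between 2 profiles over the 6 arrays, each centred on its own mean, among genes with a known name. The genes nearest to Gpd2 were Pdk2, at 0.064 log2 units, and Oxnad1, at 0.076, where the profile of Gpd2 itself varied by 0.405. Nearest to Gpd1 were Ank3 (0.037) and Wdr45b (0.046), which share its high value in WT replicate 2. Spata7 (0.051) and Cecr2 (0.054) were nearest to Aqp7. Fabp7 (0.064) and Adcy5 (0.094) were nearest to Pck1 and are low in replicate 2 of both groups. Usb1 and Cxxc5 were nearest to Aqp3, and Nomo1 and Edem3 to Pck2, all in profiles that vary little. These distances are over 6 arrays and are a description.

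Of 11 related genes measured (other glycerol kinases, dehydrogenases, channels and phosphatases), 8 differences were above 0 and the median was 0.05. By the unadjusted rule 1 was higher and 0 were lower, beside 4.99% and 2.48% of all genes. The 1 gene was Gk5, a member of the glycerol kinase family, at 7.01, 6.67 and 7.10 in KO replicates 1 to 3 against 6.73, 6.59 and 6.41 in WT replicates 1 to 3. KO replicate 2 lay below WT replicate 1. The Gk5 difference was 0.35 (SE 0.14; limma, unadjusted p = 0.0462, adjusted p = 0.622), and was 0.26 without KO replicate 3 (limma, unadjusted p = 0.123). Of the fits with 1 array left out, those without KO replicate 2 and without WT replicate 1 kept Gk5 under 0.05.

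For lipolysis, the release of glycerol from triglyceride, 0 of 9 genes were higher and 0 lower by the unadjusted rule. The shares of all genes were 4.99% and 2.48%. All 9 differences were above 0, with a median of 0.17, but the mean of the centred genes overlapped between the groups, at 0.02, -0.06 and 0.29 in KO replicates 1 to 3 and -0.07, 0.18 and -0.36 in WT replicates 1 to 3. The 11 white adipocyte markers had the same order of arrays, at 0.03, -0.05 and 0.19 in KO replicates 1 to 3 and -0.09, 0.13 and -0.20 in WT replicates 1 to 3. The 4 with the smallest p were Abhd6, a monoacylglycerol hydrolase (0.34), Ces1d, a triglyceride hydrolase (0.23), Pnpla2, which removes the first fatty acid (0.18), and Lipe, hormone-sensitive lipase (0.15). All of these overlapped between the groups. The list median was 0.07 without KO replicate 3 (7 of 9 above 0), 0.11 without WT replicate 3 (6 of 9) and 0.03 with the lymphocyte score in the fit (6 of 9). It was 0.28 without WT replicate 2 and 0.27 without KO replicate 2.

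In triglyceride assembly, which consumes glycerol 3-phosphate, 13 of 17 genes had differences above 0 and the median was 0.05. By the unadjusted rule 1 was higher and 0 lower, beside 4.99% and 2.48% of all genes. Without WT replicate 2, 3 of the 17 were higher, beside 4.06% of all genes in that fit, and without KO replicate 2 it was 2 of the 17, beside 10.4%. With the lymphocyte score in the fit, 8 of 17 differences were above 0, the median was 0, and 0 were higher, beside 2.32%. Without KO replicate 3, 11 of 17 were above 0 and 0 were higher, beside 3.10%. Mogat2, an acyltransferase that starts from monoacylglycerol and so bypasses glycerol 3-phosphate, was the 1 higher gene with all arrays. The Mogat2 difference was 0.30 (SE 0.12, limma adjusted p = 0.622), in a dim signal at the percentile of 34.6. Of the fits with 1 array left out, only those without KO replicate 1 and without WT replicate 2 kept Mogat2 under 0.05. Without KO replicate 3 the unadjusted p of Mogat2 was 0.126 (limma). Its relative Mogat1 differed by 0.35 (SE 0.27), by 0.04 without KO replicate 3 and by -0.10 with the lymphocyte score in the fit. Gpat4, which loads the first fatty acid onto glycerol 3-phosphate, differed by 0.29 (SE 0.17) and Dgat2, which adds the last one, by 0.17 (SE 0.13); without WT replicate 3 Gpat4 was at 0.12 and Dgat2 at 0.04.

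**Figure D2:**
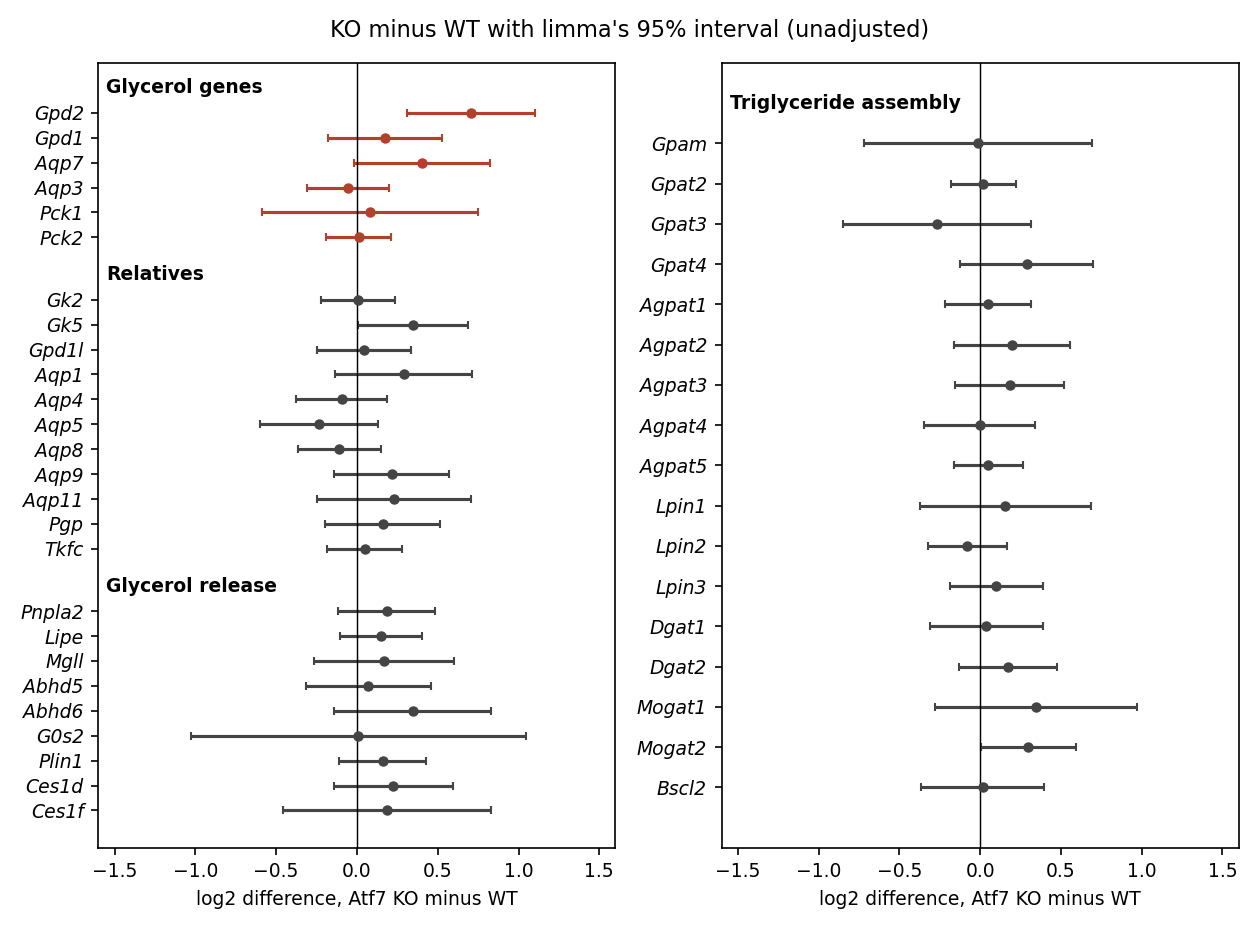
Log2 difference, KO minus WT, with limma's unadjusted 95% interval, for the glycerol genes (red) and, in grey, their relatives, the lipolysis genes and the triglyceride assembly genes. The interval of Gpd2, 0.31 to 1.10, clears 0, and those of Gk5 and Mogat2 do so narrowly.

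Pyruvate and oxaloacetate feed Pck1 and Pck2. Of 15 genes on that route, 11 had differences above 0 and the median was 0.23. All KO arrays were above all WT arrays for 3 of the 15 and below them for 1, beside 7.96% and 5.97% of all genes. By the unadjusted rule 4 were higher and 0 lower, beside 4.99% and 2.48% of all genes. In the higher direction 7 met it when KO replicate 2 was left out (beside 10.4% of all genes in that fit). It was 6 when WT replicate 2 was left out (4.06%) and 3 when KO replicate 3 was (3.10%). The list median was 0.13 without KO replicate 3 and 0.09 with the lymphocyte score in the fit. Pdk4, a kinase that inhibits pyruvate dehydrogenase and so spares pyruvate for other uses, read 12.14, 11.70 and 12.46 in KO replicates 1 to 3 against 11.33, 9.82 and 11.03 in WT replicates 1 to 3. The KO arrays were all above the WT arrays, and WT replicate 2 was far below the other arrays. The Pdk4 difference was 1.37 (SE 0.39; limma, adjusted p = 0.622), and was 0.92 without WT replicate 2. Its relative Pdk2 differed by 0.63 (SE 0.17), and Ldhb, the lactate dehydrogenase subunit of heart, by 0.86 (SE 0.21), each with a limma adjusted p of 0.622. Without KO replicate 3, Pdk2 was at 0.49 and Ldhb at 0.69, and with the lymphocyte score in the fit they were at 0.42 and 0.60. Pdha1, a subunit of pyruvate dehydrogenase, differed by 0.42 (SE 0.16) with overlap between the groups, and by 0.29 without KO replicate 3 (limma, unadjusted p = 0.0861).

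The malate-aspartate shuttle is the other route that moves reducing power from the cytosol into mitochondria. Of its 7 genes, 3 differences were above 0 and the median was -0.004. By the unadjusted rule 0 were higher and 0 lower, beside 4.99% and 2.48% of all genes. This list shares genes with the pyruvate and oxaloacetate list, so their counts are not separate. The KO arrays were all below the WT arrays for Got2, the mitochondrial aspartate aminotransferase (-0.21, SE 0.09), and for Slc25a12, an aspartate-glutamate carrier (-0.42, SE 0.19), as for 5.97% of all genes. Slc25a12 was lowest in KO replicate 3, and its difference was -0.19 without that array and -0.11 with the lymphocyte score in the fit. Mdh2, mitochondrial malate dehydrogenase, differed by 0.30 (SE 0.14), and by 0.18 without KO replicate 3.

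On the path from glucose to triose phosphate, 7 of 11 differences were above 0, with a median of 0.12. By the unadjusted rule 1 gene was higher and 1 lower, beside 4.99% and 2.48% of all genes. The median was 0.03 without KO replicate 3, 0.29 without KO replicate 2 and -0.05 with the lymphocyte score in the fit (5 of 11 above 0), and 4 genes were higher without WT replicate 2, beside 4.06% of all genes in that fit. Pfkl, a phosphofructokinase subunit, was higher by 0.44 (SE 0.12), and Slc2a1, the basal glucose transporter, was lower, at -0.49 (SE 0.14). For 1 of the 11 genes, Pfkl, all KO arrays were above all WT arrays, beside 7.96% of all genes. For 1, Slc2a1, they were all below, beside 5.97%. Slc2a4, the insulin-regulated glucose transporter of fat, differed by 0.35 (SE 0.19) and Aldoc, an aldolase, by -0.41 (SE 0.19), with overlap in both. Without WT replicate 2 they were at 0.54 and -0.20.

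Among 23 regulators of Pck1 and glycerol kinase, 17 differences were above 0 and the median was 0.18. By the unadjusted rule 4 were higher and 1 lower, beside 4.99% and 2.48% of all genes. Without WT replicate 2 there were 7 higher, beside 4.06% of all genes in that fit. Leaving out KO replicate 2 gave 6 higher and 2 lower, beside 10.4% and 8.47% of all genes. There were 3 higher without KO replicate 1, beside 2.81%, and 3 with the lymphocyte score in the fit, beside 2.32%. Without KO replicate 3, 15 of the 23 differences were above 0, and without WT replicate 3 the median was 0.12. Ppara, a nuclear receptor of fatty acid use, differed by 1.34 (SE 0.28), and the coactivators Ppargc1a and Ppargc1b by 0.86 (SE 0.24) and 0.67 (SE 0.18). The Ppargc1a difference was 0.59 without KO replicate 3 and 0.47 with the lymphocyte score in the fit. Without WT replicate 3, Ppargc1b was at 0.47 and Ppara at 1.14. Foxo1, a factor that insulin restrains, was lower, at -0.36 (SE 0.09). The fourth of the higher genes, Nr4a2, was outside the naming rule and is named after its value was seen (0.29). Ucp1, the uncoupling protein of thermogenic fat cells, differed by 2.91 (SE 0.33; limma, adjusted p = 0.237) and Cidea, a lipid droplet protein of such cells, by 1.59 (SE 0.23). Of 11 thermogenic markers 8 met the unadjusted rule in the higher direction, beside 4.99% of all genes. The gene lists were chosen with earlier results of these data known, so that count is not an independent check. The centred mean of the 11 was 0.45, 0.35 and 0.82 in KO replicates 1 to 3 against -0.31, -0.60 and -0.71 in WT replicates 1 to 3. Elovl3, a dim marker at the percentile of 16.3, went the other way (-0.06, SE 0.08). All its KO arrays were below all WT arrays, as for 5.97% of all genes. The part of a different makeup of cells in the Gpd2 value was not tested.

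**Figure D3:**
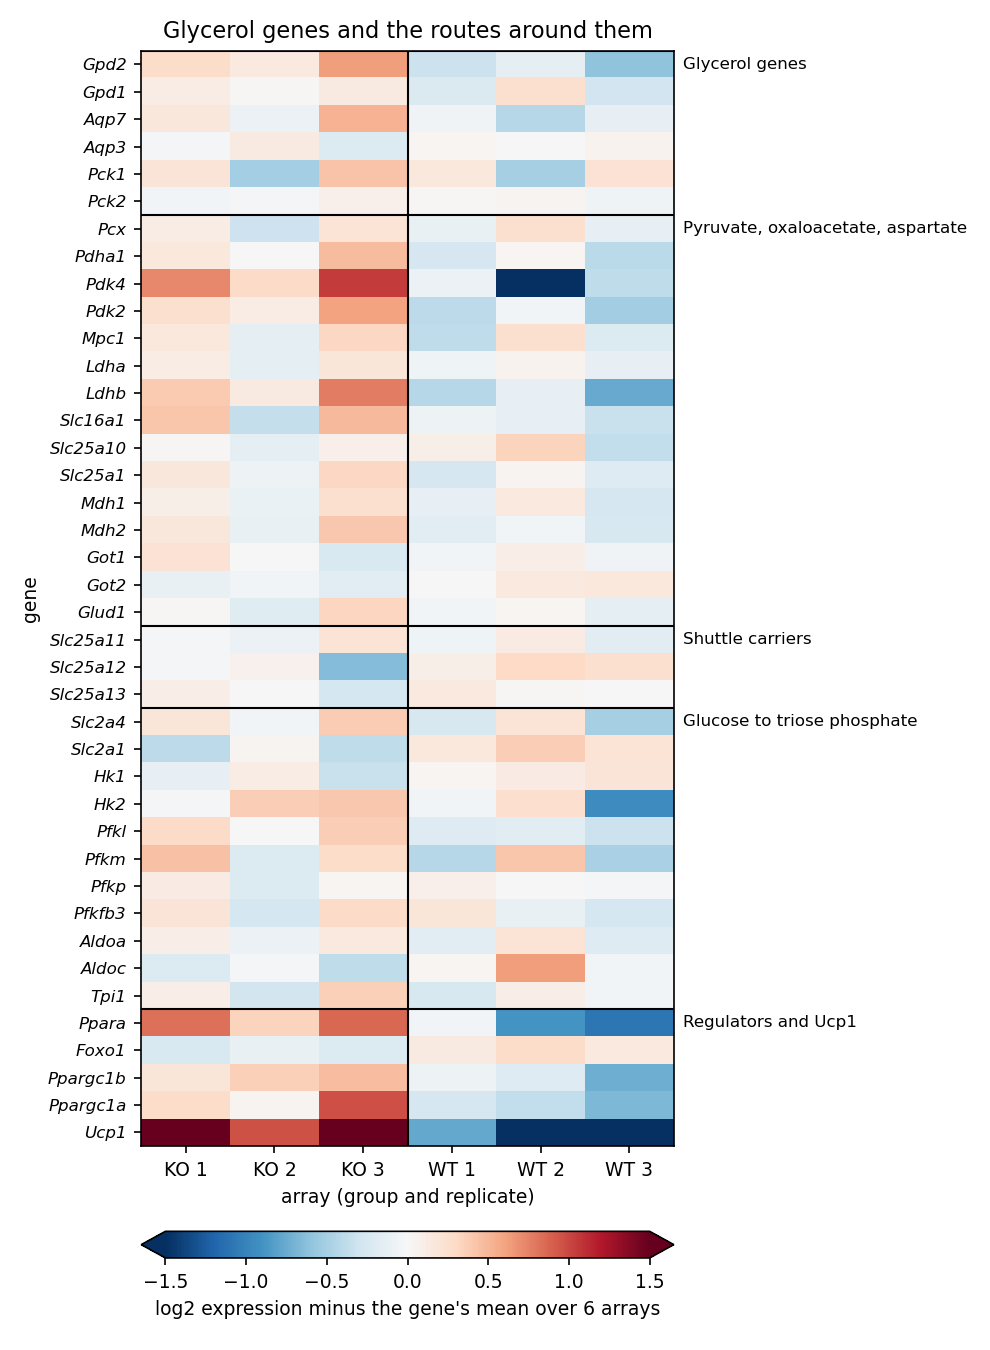
Log2 expression minus each gene's mean over the 6 arrays, with KO arrays on the left and WT arrays on the right, for the glycerol genes, the pyruvate, oxaloacetate and aspartate genes, 3 shuttle carriers, the glucose genes, the 4 regulators with the smallest p and Ucp1. Gpd2, Ldhb, Pdk2 and Pdk4 are above their mean in the KO arrays, and Pck1 is below its mean in replicate 2 of both groups; colours stop at 1.5, past which Ucp1 and, in WT replicate 2, Pdk4 reach.

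**Figure D4:**
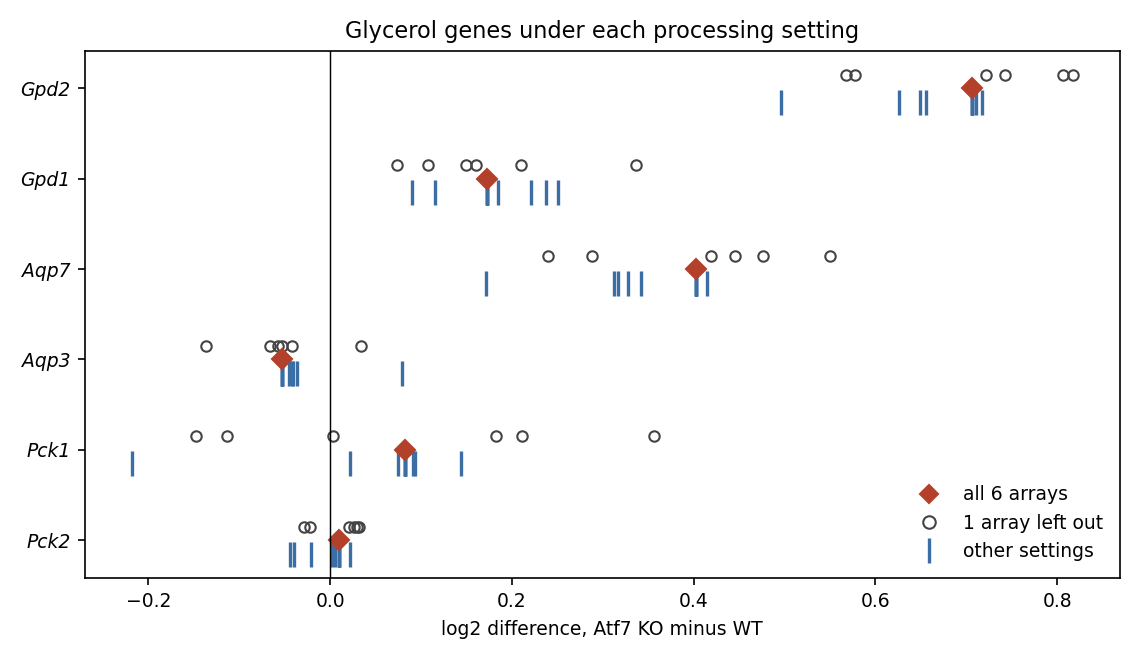
Log2 difference, KO minus WT, of the 6 glycerol genes with all 6 arrays (diamonds), with 1 array left out (circles) and under the other processing settings (bars). Gpd2 stayed between 0.50 and 0.82 and Aqp7 between 0.17 and 0.55, while the values of Aqp3, Pck1 and Pck2 fall on both sides of 0.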

How the data were processed

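RNA of inguinal fat from 3 KO and 3 WT mice was measured on 1 array each. The deposited values are log2 expression per probe set, made with RMA (which corrects background, quantile-normalizes and summarizes probes), affy and limma, per the submitters' processing notes. Tool versions: not given in the sources used here. Such normalization hides a shift common to most of the genes. The platform annotation gave 1 symbol to 21640 of 34760 probe sets, several to 1321 and none to 11799. Where a gene had several probe sets, the one brightest on average stood for it (19937 genes). Genes were tested on these log2 values by linear models and empirical Bayes moderation (limma 3.58.1, R 4.3.3; two-sided, no filter, 0.05 on the Benjamini-Hochberg adjusted p), checked on simulated data. Ratios between members were tested by exact permutation over arrays, where 3 against 3 cannot go below 0.1. Pairs with glycerol kinase were not analysed here. Members and gene lists were chosen with earlier results of these data known. Named were all members, Atf7, relatives at an unadjusted p under 0.05, the 4 genes of each pathway list with the smallest p, Ucp1, Cidea, Ppargc1a and Adipoq, and the 2 nearest profiles of each member. Alternatives changed normalization, filter, probe set rule, weights, covariates and arrays. The number of arrays limits the precision.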

Additional observations from a re-analysis of the deposited data

How the results depend on the processing

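Gpd2, Gpd1 and Aqp7 were above 0 in all 17 alternatives run, and 1 of these moved Gpd2 past the adjusted threshold. That was limma's default array weights, whose estimation stopped before converging and gave KO replicate 1 a weight of 13.4 against 0.296 for KO replicate 3: Gpd2 was 0.626 (adjusted p = 0.0240), Pck2 -0.0392, 3 members met the unadjusted rule (p under 0.05) in the higher direction, and all genes gave 1688 higher and 1432 lower calls after adjustment, and 3668 and 3745 before it. Because those weights did not converge, a gene-by-gene weighting was added after seeing the data; it gave an adjusted p of 0.307 for Gpd2, Pck2 at -0.0205, and 1614 higher and 1325 lower genes before adjustment. Over the alternatives the adjusted p of Gpd2 ran from 0.0240 to 1. With the lymphocyte score in the fit Aqp3 was 0.0791, Pck1 -0.218 and Pck2 -0.0439, with 462 higher and 326 lower genes before adjustment. The muscle score gave 609 and 303. Leaving out genes under the median level, which drops Aqp3, gave 618 and 253 of 9969 genes. Those are 6.2% and 2.54%, beside 4.99% and 2.48% in the fit of all 19937 genes. The mean of a gene's probe sets gave 1 lower gene after adjustment. All 34760 probe sets in one fit gave 2, with 987 (2.84%) lower before adjustment. With each array left out in turn, Gpd1 ran between 0.0737 and 0.337, Aqp3 between -0.137 and 0.034, Pck1 between -0.147 and 0.356, Pck2 between -0.0286 and 0.0313, the log2 ratio of Aqp3 to Aqp7 between -0.686 and -0.206, and that of Pck2 to Pck1 between -0.329 and 0.177; 1 to 2 members, and 560 to 2068 higher and 192 to 1689 lower genes, met the unadjusted rule, against 995 and 494 with all arrays. The second member was Aqp7 without KO replicate 2 and Gpd1 without WT replicate 2. In those fits 10.4% and 4.06% of all genes met the rule in the higher direction. The causes of these shifts were not tested. Same-numbered arrays did not deviate together (correlations -0.143, -0.0790 and -0.0446). With 3 arrays per group these correlations cannot decide whether the numbers carry a pairing. With a replicate block, 2 members met the unadjusted rule in the higher direction, Gpd2 (0.706, limma adjusted p = 0.644) and Aqp7, beside 4.6% of all genes. No adjusted call changed in that fit. The block lowered the SE of Pck1 from 0.284 to 0.0983 and of Aqp7 from 0.178 to 0.119. It raised the SE of Gpd1, Gpd2, Aqp3 and Pck2. With 3 arrays per group, the 95% interval of Pck1 spans -0.59 to 0.75, so differences within it are not excluded.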
